A study of Homo sapiens with 2 samples.

Results

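The nuclear genes for subunits of the mitochondrial respiratory chain and the ATP synthase were examined in A549 cells, an established human lung adenocarcinoma line. Members were taken by gene symbol: the numbered NDUFA, NDUFB, NDUFC, NDUFS and NDUFV genes of complex I, SDHA to SDHD of complex II, the UQCR genes and CYC1 of complex III, the COX4 to COX8 and COXFA4 genes of complex IV, and the ATP5 subunits of complex V. Assembly factors and readthrough genes were left out. Of 88 protein-coding genes in RefSeq that match, 83 are among the 16399 genes listed here, and 80 of these were expressed, meaning that either library had at least 1 CPM, the count per 1000000 counts of that library. COX4I2, COX6A2, COX7B2, COX8C and ATP5MGL were not analysed here.

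RNA sequencing gave 1 library from A549 cells with the vector and 1 from A549 cells overexpressing PKP2 through an SFB-tagged construct (S-protein, FLAG and streptavidin-binding peptide). PKP2 encodes plakophilin 2, a protein of desmosomal plaques, and the series was made to look for genes downstream of it. Both cultures were at passage 5 in DMEM with serum. The labels do not say whether the cells were a clone or a pool.

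The respiratory chain moves electrons from NADH (complex I) and succinate (complex II) through complexes III and IV to oxygen and pumps protons, and complex V uses the proton gradient to make ATP. Complexes I, III, IV and V are built from subunits of both genomes. The mitochondrial genome encodes membrane core subunits, and the nucleus encodes the other catalytic subunits and a large number of small accessory, or supernumerary, subunits. No mitochondrially encoded subunit was among the genes listed, so the chain is described here from its nuclear part alone.

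The promoters of 4 members are shown, each as the 250 bases before the start site in the RefSeq table for GRCh38.p14. They belong to the member that was highest in the PKP2 library relative to vector (COXFA4L3, chr15:45430360-45430609, plus strand), the next highest (UQCRQ, chr5:132866392-132866641, plus strand), the highest of complex V (ATP5ME, chr4:674277-674526, minus strand) and the lowest member at a mean of 5 CPM or more (NDUFS1, chr2:206159445-206159694, minus strand). Capitals mark letters that match a binding motif of NRF1 (both capital stretches of ATP5ME) or of the ETS family (CCGGAAG, or CTTCCGG on the other strand). NRF1 and the ETS factor GABP are known regulators of respiratory chain genes.
COXFA4L3: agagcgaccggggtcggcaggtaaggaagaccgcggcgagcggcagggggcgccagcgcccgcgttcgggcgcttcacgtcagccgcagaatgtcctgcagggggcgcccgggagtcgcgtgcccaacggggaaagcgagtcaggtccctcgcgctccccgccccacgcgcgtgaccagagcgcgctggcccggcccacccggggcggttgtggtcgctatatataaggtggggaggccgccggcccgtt
UQCRQ: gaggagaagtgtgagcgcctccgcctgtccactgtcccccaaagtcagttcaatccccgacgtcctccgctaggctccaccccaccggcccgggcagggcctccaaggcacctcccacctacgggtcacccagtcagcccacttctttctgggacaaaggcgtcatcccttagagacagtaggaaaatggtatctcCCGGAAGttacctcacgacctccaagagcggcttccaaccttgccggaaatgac
ATP5ME: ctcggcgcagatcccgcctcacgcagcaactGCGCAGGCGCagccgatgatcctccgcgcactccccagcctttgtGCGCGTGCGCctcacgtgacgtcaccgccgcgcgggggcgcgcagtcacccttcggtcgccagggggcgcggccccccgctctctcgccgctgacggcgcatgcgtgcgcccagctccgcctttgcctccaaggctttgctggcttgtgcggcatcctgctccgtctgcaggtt
NDUFS1: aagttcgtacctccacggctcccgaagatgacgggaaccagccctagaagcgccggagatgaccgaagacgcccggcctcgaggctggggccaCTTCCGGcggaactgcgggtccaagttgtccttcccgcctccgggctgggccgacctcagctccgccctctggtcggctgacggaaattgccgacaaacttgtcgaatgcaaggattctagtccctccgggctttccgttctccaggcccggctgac

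Within these bases ATP5ME held 2 matches to the NRF1 letters, UQCRQ and NDUFS1 held 1 each to the ETS letters, and COXFA4L3 held none. Over the whole RefSeq windows of 300 bases (250 before to 50 after the start, the first window listed for a gene), the NRF1 letters were in 16 of the 67 expressed members that had a window, or 23.9%. They were in 11.8% of 10441 windows of expressed genes and in 6.28% of all 27305 windows. The ETS letters were in 20 of 67 (29.9%), against 19.3% and 10.7%. The letters AAGATGGCG of YY1, another factor known at such promoters, were in 8 of 67 (11.9%), against 4.02% and 1.85%. The ETS and YY1 letters share AAG at their ends, and matches of different motifs overlapped in 0 of the 67 windows. Members with the NRF1 letters had a median difference between the libraries of 0.26 on the log2(CPM + 1) scale and the other 51 had 0.20. For the ETS letters both medians were 0.21, and for the YY1 letters they were 0.18 with and 0.21 without. After removal of a trend on transcript length and GC content, the medians with and without were 0.11 and 0.070 for NRF1, 0.035 and 0.092 for ETS, and 0.080 and 0.081 for YY1. These are letter matches in fixed windows and say nothing of binding.

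The targeted gene and the cell identity were checked first. PKP2 stood at 27.3 CPM with the vector and 268 CPM with PKP2, a ratio of 9.82 with a 95% counting interval of 8.92 to 10.8. Library totals were 16996976 and 16808842 estimated counts. Of 10 A549 and lung epithelial markers 9 were among the genes listed and 7 were expressed. They were led by ALDH1A1, KRT8, KRT18, AKR1B10 and KRT7 at over 2000 CPM in each library, while the lung lineage factor NKX2-1 had at most 2 counts. The marker list also held EPCAM, CDH1 and the surfactant genes SFTPB and SFTPC. Of 12 markers of other cell types only COL1A1 (8.12 and 10.4 CPM) and CD14 (3.35 and 3.27 CPM) were expressed. With 1 library per group no difference below has a replicate check: each compares these libraries and not the conditions, intervals cover counting error only, and in bulk RNA fewer cells of a type and less RNA per cell cannot be told apart.

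Respiratory chain subunits were mostly slightly higher in the PKP2 library. Summed over the 83 listed members they made up 8093 CPM with the vector and 8974 CPM with PKP2, a ratio of 1.11 (95% counting interval 1.101 to 1.12). Of the 80 expressed members 72 were higher and 8 lower, where 49.7% of all 12820 expressed genes were higher. By the step used here, a 1.2-fold difference in CPM + 1, 23 members were higher and none lower, against 8.70% of expressed genes higher and 11.0% lower. Their median difference was 0.20 on the log2(CPM + 1) scale, that of all expressed genes 0.00. The counting interval of the ratio lay above 1 for 61 members (16.3% of expressed genes) and below 1 for 2 members (19.8% of expressed genes). Intervals are narrower for genes with more counts, and these shares are not matched for that. On the log2 scale the median lower and upper limits were 0.11 and 0.32 for the members, and -0.21 and 0.19 for all expressed genes. The differences were small: 1 member was past 1.5-fold higher (0.733% of expressed genes), and none was past 1.5-fold lower (0.788%). With a trend on transcript length and GC content removed, the median was 0.077, and 5 members were at least 1.2-fold higher and 1 lower, against 6.31% and 6.71% of 12671 genes.

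**Figure D1:**
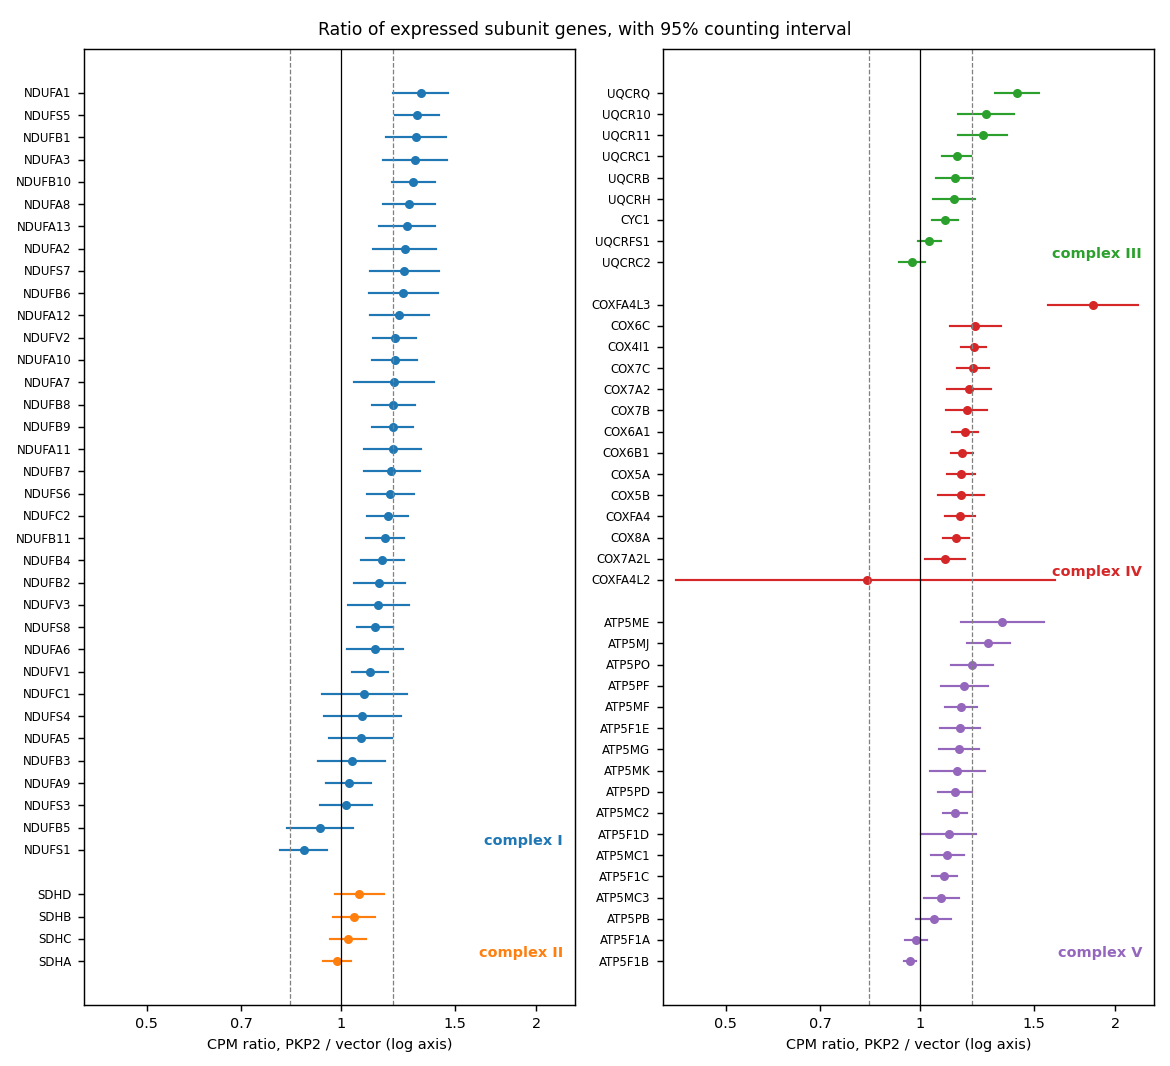
Ratio of CPM in the PKP2 library to that in the vector library for 79 of the 80 expressed subunit genes (log axis), by complex, with 95% counting intervals as bars; dashed lines mark 1.2-fold in each direction. Most points lie between 1 and 1.3, the complex II genes lie around 1, and COXFA4L3 stands apart at 1.85.

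By summed CPM the ratio was 1.17 for complex IV (1.15 to 1.19), 1.15 for complex I (1.14 to 1.17), 1.097 for complex III (1.08 to 1.12), 1.06 for complex V (1.05 to 1.07) and 1.02 for complex II (0.985 to 1.05), whose interval includes 1. The median difference of expressed members was 0.25 for the 36 of complex I, 0.22 for the 14 of complex IV, 0.18 for the 17 of complex V, 0.17 for the 9 of complex III and 0.05 for the 4 of complex II. Members at least 1.2-fold higher numbered 14 in complex I, 4 in complex IV, 3 in complex III, 2 in complex V and 0 in complex II. Of all expressed genes 8.70% were, and of those with a transcript of at most 1000 nucleotides 26.3%. The 2 of 17 in complex V (11.8%) are near the first share. The 4 of 14 in complex IV (28.6%), of median length 687 nucleotides, are near the second. With a trend on length and GC content removed, 2, 1, 1, 1 and 0 members of complexes I to V were, against 6.31% of genes.

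Complex I takes electrons from NADH through a flavin and a chain of iron-sulfur clusters held by 7 nuclear core subunits. These core subunits spread from lower to higher. NDUFS1, the largest of them and the carrier of several iron-sulfur clusters, stood at 72.0 CPM with the vector and 62.9 with PKP2, 1.14-fold lower (1.05 to 1.24), and it was the 1 complex I member with an interval below 1. Its exons overlap EEF1B2 and AC007383.3 on the opposite strand and GCSHP3 on the same strand. NDUFS3 had 52.8 and 53.7 CPM, a ratio of 1.02 (0.926 to 1.12), and did not differ detectably at this depth.

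Further core subunits of complex I were higher. NDUFV1, which binds the flavin, had 104.5 and 115.7 CPM, a ratio of 1.11 (1.04 to 1.18). The iron-sulfur protein NDUFS8 had 109.02 and 122.7 CPM, a ratio of 1.13 (1.06 to 1.199). NDUFV2 (fractional count) had 73.1 and 88.4 CPM, a ratio of 1.21 (1.12 to 1.30). NDUFS7, which holds the terminal cluster, had 27.8 and 34.8 CPM, a ratio of 1.25 (1.11 to 1.41). The core thus covered differences from -0.19 to 0.31, with a summed ratio of 1.06 (1.03 to 1.09).

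Of the 29 supernumerary subunits of complex I 28 were higher, 23 of them with a counting interval above 1. Of all expressed genes, whose intervals were wider at the median, 49.7% were higher and 16.3% had such an interval. With the length and GC trend removed 2 of the 29 were at least 1.2-fold higher, against 6.31% of genes. By library totals 12 were, against 8.70% of expressed genes and 26.3% of those with a transcript of at most 1000 nucleotides. The 29 had a median difference of 0.26, a range from -0.11 to 0.40 and a summed ratio of 1.19 (1.17 to 1.21). The highest was NDUFA1, an X-linked single-pass membrane subunit needed for assembly, with 42.8 CPM with the vector and 56.7 with PKP2, a ratio of 1.33 (1.202 to 1.46). NDUFS5, on the intermembrane side, had 68.5 and 89.7 CPM, a ratio of 1.31 (1.21 to 1.41). The small subunits NDUFB1 (36.9 and 48.1 CPM) and NDUFA3 (31.7 and 41.2 CPM) both had a ratio of 1.30, with intervals of 1.17 to 1.45 and 1.16 to 1.46. The exception was NDUFB5 at 35.7 and 33.02 CPM, a ratio of 0.926 whose interval of 0.824 to 1.04 includes 1.

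Complex II, which is also the succinate dehydrogenase of the citric acid cycle and has no mitochondrially encoded part, hardly differed between the libraries. The flavoprotein SDHA had 180.7 CPM with the vector and 177.9 with PKP2, a ratio of 0.985 (0.936 to 1.04). The iron-sulfur subunit SDHB had 84.4 and 88.2 CPM (1.05, 0.972 to 1.13). The membrane anchors SDHC (113.6 and 116.2 CPM, ratio 1.02, 0.960 to 1.09) and SDHD (57.7 and 61.5 CPM, ratio 1.07, 0.976 to 1.16) completed the set. All 4 intervals include 1.

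In complex III the 3 members with the largest differences were all small subunits. UQCRQ, a small subunit beside cytochrome b, was the second highest of all members in difference, at 62.8 CPM with the vector and 88.5 with PKP2, a ratio of 1.41 (1.30 to 1.53). It lies on chromosome 5, its exons overlap GDF9 on the opposite strand, and its count cannot be separated from reads of GDF9 if strand was not used. UQCR10 (40.9 and 51.6 CPM) had a ratio of 1.26 (1.14 to 1.40) and UQCR11 (54.4 and 67.9 CPM) one of 1.25 (1.14 to 1.36).

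The catalytic and core proteins of complex III differed less. CYC1, cytochrome c1, had 211.1 and 230.1 CPM, a ratio of 1.09 (1.04 to 1.14). UQCRFS1, the Rieske iron-sulfur protein, had 278.8 and 287.8 CPM (1.03, 0.991 to 1.07). Of the large core proteins UQCRC1 had 164.4 and 187.1 CPM, a ratio of 1.14 (1.08 to 1.198), and UQCRC2 (fractional count) had 213.8 and 207.7 CPM, a ratio of 0.971 (0.927 to 1.02). UQCRH, the acidic hinge protein, had 77.1 and 86.9 CPM, a ratio of 1.13 (1.05 to 1.22), and its near-identical copy UQCRHL had 2.67 estimated counts with the vector and 0 with PKP2, so no fold is given for UQCRHL. The vector count of UQCRH is fractional.

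Complex IV, cytochrome c oxidase, carries its redox centres on mitochondrially encoded subunits, and its nuclear subunits surround them. All 11 expressed COX subunits were higher with an interval above 1, beside 16.3% of all expressed genes, whose intervals were wider at the median. Among genes with a principal transcript of at most 1000 nucleotides 438 of 870 had such an interval. The differences of the 11 COX subunits ran from 0.12 to 0.28, with a median of 0.23. After removal of the trend on length and GC content their median was 0.059, the range -0.061 to 0.16, and 3 of the 11 lay below 0. COX6C (51.1 and 62.1 CPM) was highest with a ratio of 1.21 (1.11 to 1.33), followed by COX4I1 (204.0 and 246.5 CPM), a subunit that binds ATP, with 1.21 (1.15 to 1.26), and COX7C (131.8 and 159.0 CPM) with 1.21 (1.14 to 1.28). COX7A2L, which joins complexes III and IV in supercomplexes, was the lowest with 85.1 and 92.8 CPM, a ratio of 1.09 (1.01 to 1.17). Between them lay COX7A2 at 1.19, COX7B at 1.18, COX6A1 at 1.17, COX6B1 at 1.16 and COX8A at 1.13, all as ratios of CPM.

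The COXFA4 genes encode alternative forms of one small subunit, once assigned to complex I as NDUFA4 and later found in complex IV. COXFA4L3 (chromosome 15, 45430529 to 45448761, plus strand, GRCh38), also known as C15orf48 and described as a form induced by inflammatory signals, was the member with the largest difference. It had 243 counts with the vector and 444 with PKP2, or 14.3 and 26.4 CPM, a ratio of 1.85 (1.58 to 2.17), and it ranked 23 among the 12820 expressed genes by its difference of 0.84. COXFA4, the constitutive form, had 143.5 and 165.2 CPM, a ratio of 1.15 (1.09 to 1.22), in the range of the COX subunits. COXFA4L2, a form known to be induced by hypoxia, had 22 and 18 counts, or 1.29 and 1.07 CPM, a ratio of 0.827 (0.418 to 1.62), so no difference was detectable at this depth.

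Per kilobase of principal transcript, COXFA4 stood at 67.4 CPM per kb with the vector and 77.6 with PKP2, and COXFA4L3 at 19.5 and 36.1. The level of COXFA4 was thus 3.45 times that of COXFA4L3 in the vector library and 2.15 times in the PKP2 library. COXFA4L2 was at 1.0997 and 0.910 CPM per kb. By the longest transcript COXFA4L3 stood at 16.3 and 30.2 CPM per kb and COXFA4 was unchanged, so the ratios between them depend on the length used. The exons of COXFA4L3 overlap AC025580.2 on the same strand and AC025580.1 on the opposite strand in GENCODE 29, and both its counts are whole. They also hold the hairpin of MIR147B, so its transcript carries a microRNA with a function of its own. The mature product, from chromosome 15, 45433098 to 45433118, plus strand, is shown with its seed (bases 2 to 8) in capitals because it is made from the member that differed most. Its level was not measured here.
hsa-miR-147b-3p: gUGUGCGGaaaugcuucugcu

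**Figure D2:**
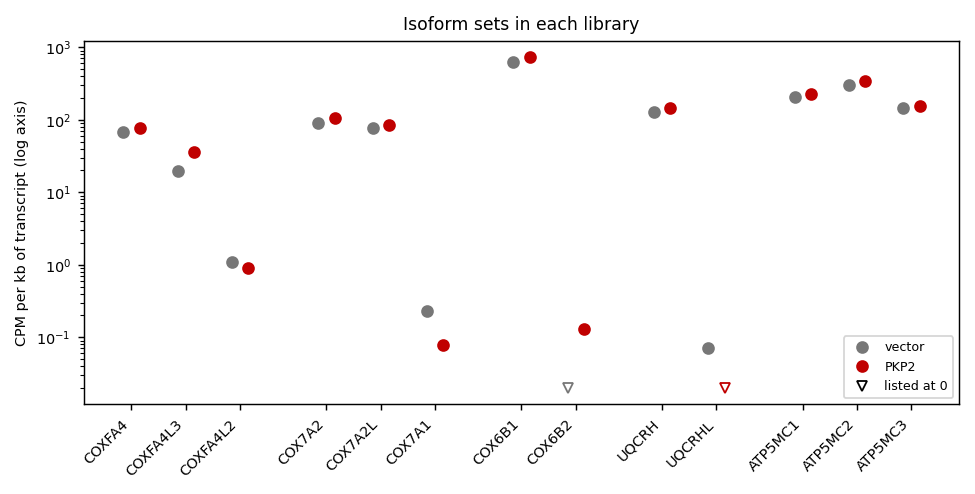
Level per kilobase of principal transcript (CPM per kb, log axis) of genes that encode alternative forms of one subunit, with the vector library in grey and the PKP2 library in red; open triangles mark genes listed at 0. COXFA4L3 lies nearer to COXFA4 in the PKP2 library, while COX7A1, COX6B2 and UQCRHL lie far below their partners in both libraries.

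Muscle and testis forms of complex IV subunits were at the floor. COX7A1, the heart and skeletal muscle form, had 3 counts and 1 count, and COX6B2, the testis form, had 0 and 1.04 estimated counts. Both lie at or under the floor of 3 counts, which is 0.177 CPM for the vector and 0.178 CPM for PKP2, so no fold is given. Their ubiquitous partners were abundant, with COX7A2 at 88.8 and 105.4 CPM per kb and COX6B1 at 626.6 and 726.6 CPM per kb, the highest level per length of complex IV.

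Complex V has a catalytic head of ATP5F1 subunits, a ring of c subunits that rotates as protons pass, a peripheral stalk and small membrane subunits. By summed counts the head stood apart from the other parts. The 5 subunits of the head and its central stalk had a summed ratio of 0.999 (0.982 to 1.02), the 3 c-ring genes 1.11 (1.08 to 1.14), the 4 peripheral stalk genes 1.13 (1.09 to 1.17) and the 5 membrane subunits 1.19 (1.14 to 1.23). The sum over the head is set mainly by the catalytic beta subunit ATP5F1B, the most abundant member by CPM, at 912.4 CPM with the vector and 879.4 with PKP2, 1.04-fold lower (1.01 to 1.06). The alpha subunit ATP5F1A had 324.4 and 319.1 CPM, a ratio of 0.984 (0.947 to 1.02). The other 3 genes of the head and stalk had counting intervals above 1, and the median difference of the 5 was 0.12.

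Among the smaller complex V subunits ATP5ME, a membrane subunit of the dimer interface, was highest with 19.1 and 25.6 CPM, a ratio of 1.34 (1.16 to 1.55). Its exons overlap MYL5 on the opposite strand. ATP5MJ, also of the membrane part, had 69.7 and 88.7 CPM, a ratio of 1.27 (1.18 to 1.38). In the peripheral stalk ATP5PO (78.1 and 93.8 CPM, ratio 1.202, 1.12 to 1.29) and ATP5PF (62.9 and 73.5 CPM, ratio 1.17, 1.08 to 1.27, fractional count) were higher, and ATP5PB (116.7 and 122.4 CPM, ratio 1.05, 0.986 to 1.12) did not differ detectably.

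The c-ring genes ATP5MC1, ATP5MC2 and ATP5MC3 encode one mature protein with different targeting sequences, and their ratios lay close together. Per length of principal transcript ATP5MC2 was 1.46 times as high as ATP5MC1 in the vector library and 1.4997 times in the PKP2 library. These 2 values depend on the length used. By the longest transcripts ATP5MC2 and ATP5MC1 stood at 114.2 and 56.0 CPM per kb with the vector and 129.1 and 61.7 with PKP2. Their ratios of CPM were 1.101 for ATP5MC1 (1.04 to 1.17), 1.13 for ATP5MC2 (1.08 to 1.18) and 1.08 for ATP5MC3 (1.01 to 1.15), with overlapping intervals.

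**Figure D3:**
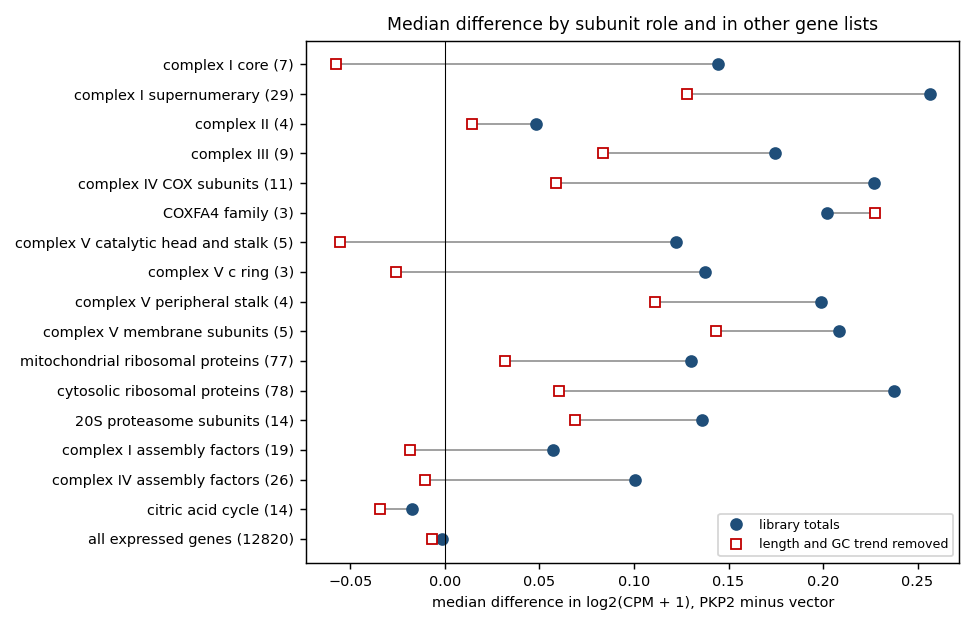
Median difference in log2(CPM + 1), PKP2 minus vector, for subunit roles and for other gene lists, with the number of expressed genes in brackets; filled circles use library totals and open squares have the length and GC trend removed. The circles of every subunit group lie above 0. With the principal transcript in the trend, as drawn, the squares of the complex I core, the complex V head and the c ring lie below 0. These signs depend on the transcript length used.

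Levels per length varied widely within each complex. By principal transcript in the vector library, the range among expressed members was 7.91 to 137.8 CPM per kb in complex I, 8.37 to 75.6 in complex II, 18.2 to 170.2 in complex III, 1.0997 to 626.6 in complex IV and 37.0 to 496.1 in complex V. There NDUFV3 was lowest and NDUFS8 highest in complex I, SDHC lowest and SDHA highest in complex II, and ATP5PB lowest and ATP5F1B highest in complex V. In the PKP2 library these were NDUFA9 and NDUFS5, SDHC and SDHB, and ATP5PB and ATP5MF. In both libraries COXFA4L2 was lowest and COX6B1 highest in complex IV. The longest transcript changed more of this order, with NDUFS1 and NDUFS5 at the ends of complex I and ATP5MC3 lowest in complex V in both libraries. The vector median of complex IV, at 149.8 CPM per kb, and of complex V, at 145.7, exceeded those of complexes I and II, at 56.0 and 56.6. With the longest transcript they were 71.2 and 52.6 against 35.2 and 50.1, so complexes V and II then lay close together. The low values of NDUFV3 (4676 nucleotides) and SDHC (13566 nucleotides) rest on long annotated transcripts.

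Transcript length moved with the difference between the libraries. Across the 79 members at a mean of 5 CPM or more, which share the same pair of libraries, Spearman's rho was -0.47 with transcript length, -0.51 with coding length and 0.24 with GC content, and across 10798 genes at this level it was -0.52 with transcript length. In the shortest of 5 equal length groups (177 to 1665 nucleotides) the 62 members had a median difference of 0.22 and the other genes 0.13, and 22 of the 62 were at least 1.2-fold higher, against 16.5% of the other genes. In the next group (1666 to 2468 nucleotides) the 8 members lay at -0.023 and the other genes at 0.046, and 0 of the 8 were at least 1.2-fold higher, against 5.90%. Of the 49 expressed members with a transcript of at most 1000 nucleotides 20 were at least 1.2-fold higher, against 26.3% of 870 such genes with these members included, and 0 were 1.2-fold lower, against 2.64%. Of the 31 longer members 3 were at least 1.2-fold higher, against 7.28% of 11801 such genes, and 0 were 1.2-fold lower, against 11.5%.

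**Figure D4:**
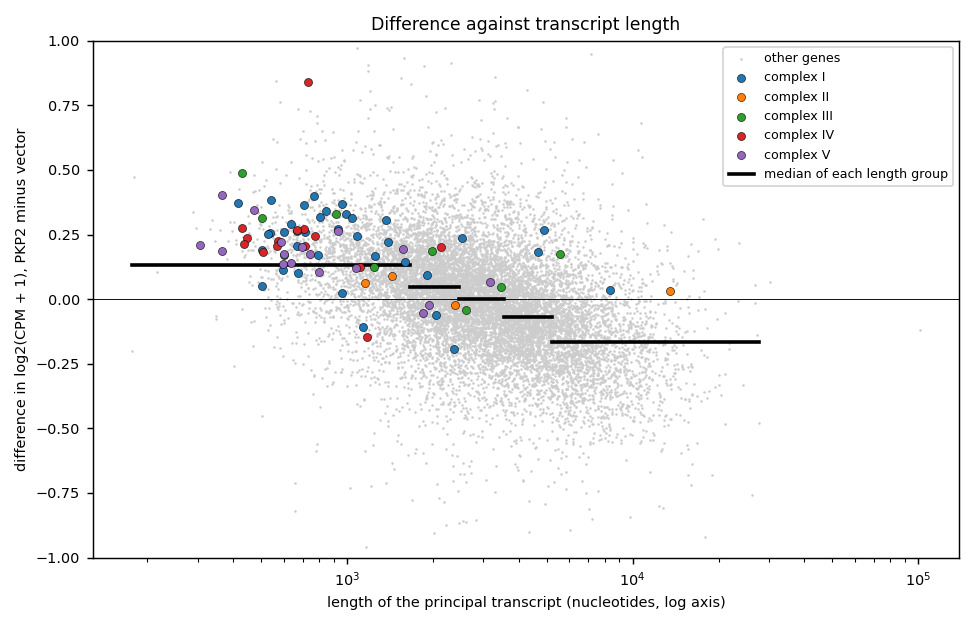
Difference in log2(CPM + 1), PKP2 minus vector, against the length of the principal transcript (log axis) for the expressed members by complex and for other expressed genes in grey, of which 17 lie beyond the plotted range. Black lines are medians in 5 equal length groups of the genes at a mean of 5 CPM or more, members included. Most members lie in the shortest group, where the median of these genes is 0.13, and the members of that group lie around 0.22.

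With an additive trend on length and GC content removed, the displacement of the members shrank. Of the 80 members 54 were above 0, against 48.1% of genes. The 5 members at least 1.2-fold higher are a share near the 6.31% of all genes and no result about the members. The medians by complex were 0.086 in complex I, 0.014 in complex II, 0.083 in complex III, 0.071 in complex IV and 0.036 in complex V. The complex I core lay at -0.06 and its supernumerary subunits at 0.13, the complex V head at -0.055 and the c ring at -0.026. These negative signs depend on the length used. With the longest transcript the middle member of the core was NDUFV1 at 0.034, and that of the head was ATP5F1C at 0.009. The c-ring genes then lay at 0.074, 0.095 and 0.22. By coding length the middle member of the core was NDUFS8 at -0.022.

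COXFA4L3 lay at 0.73 with the trend removed, in place of 0.84, and it was past 1.2-fold whether the trend used the principal transcript, the longest transcript (0.71) or the coding length (0.72). The other 4 past the step were NDUFA10 at 0.36, UQCRB at 0.34, NDUFB6 at 0.27 and SDHC at 0.27, of which NDUFA10, UQCRB and NDUFB6 were picked after their values were seen. None of these 4 was past it in all 3 versions: by coding length they lay at 0.26, 0.14, 0.25 and -0.01. UQCRQ lay at 0.26, 0.30 and 0.28 in the 3 versions and NDUFA1 at 0.22, 0.17 and 0.17. ATP5F1B lay at -0.12 and NDUFS1 at -0.18 with the principal transcript, and NDUFS1 at 0.01 with the longest one (11819 nucleotides in place of 2371). COXFA4L2, the member below the step, lay at -0.33 from its 22 and 18 counts.

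The same values were taken for other lists of genes with short transcripts. The 77 mitochondrial ribosomal protein genes had a median difference of 0.13 with 7 at least 1.2-fold higher, the 78 cytosolic ribosomal protein genes 0.24 with 32, and the 14 genes of the 20S proteasome 0.14 with 1 (PSMA3). The 7 of 77 (9.09%) and 1 of 14 (7.14%) are near the 8.70% of all expressed genes. With the trend removed these medians were 0.03, 0.06 and 0.07, beside 0.077 for the respiratory chain. The part of length in the difference of any single list was not tested.

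The wider pathway was described from lists of related genes. Assembly factors build the complexes but do not stay in them. By library totals their medians were closer to 0 than those of the subunits in complexes I, III, IV and V, and farther in complex II. With the length and GC trend removed they were -0.019, 0.090, 0.070, -0.011 and -0.036 in complexes I to V. The subunits then had 0.086, 0.014, 0.083, 0.071 and 0.036. They lay above the factors in complexes I, III, IV and V, by least in complex III, and below them in complex II. In each complex the gap was smaller than by library totals, and these gaps were not tested. The counts and medians that follow use library totals. Of 19 factors of complex I 2 were at least 1.2-fold higher and 1 lower (median 0.06), of 4 of complex II 1 and 0 (0.17), of 9 of complex III 0 and 0 (0.10), of 26 of complex IV 3 and 1 (0.10) and of 5 of complex V 1 and 0 (0.03). All expressed genes had 8.70% higher and 11.0% lower, and these shares were near it in complexes I and IV (10.5% and 11.5% higher), with lists too short elsewhere to read a share. PET100, a small factor for complex IV, had 5.88 and 9.46 CPM, a ratio of 1.61 (1.24 to 2.09), and NDUFAF2, a complex I chaperone, had 14.8 and 20.5 CPM, a ratio of 1.39 (1.17 to 1.64). NUBPL, which delivers iron-sulfur clusters to complex I, had 17.003 and 13.7 CPM, 1.24-fold lower (1.04 to 1.48). SDHAF3 of complex II (ratio 1.22, 1.03 to 1.44) and COA6, a copper factor of complex IV (1.27, 1.11 to 1.45), were higher, and LYRM7 of complex III, with a fractional count, was 1.19-fold lower (1.02 to 1.38). The remaining factors past 1.2-fold, named after their values were seen, were NDUFAF1 of complex I (ratio 1.24, 0.999 to 1.53), the copper chaperone COX17 (1.22, 1.07 to 1.38), FMC1 of complex V (1.34, 0.992 to 1.81, fractional count) and, 1.23-fold lower (1.18 to 1.28), LRPPRC, which stabilises mitochondrial mRNAs.

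Genes around the chain went both ways. ATP5IF1, the inhibitor of ATP hydrolysis by complex V, had 39.8 CPM with the vector and 49.2 with PKP2, a ratio of 1.24 (1.11 to 1.37). NNT, the transhydrogenase that makes NADPH from the proton gradient, had 32.4 and 25.8 CPM, 1.25-fold lower (1.103 to 1.42). CYCS, the electron carrier cytochrome c, had 236.6 and 239.9 CPM, a ratio of 1.01 (0.971 to 1.06), and the acyl carrier subunit NDUFAB1, which the symbol rule leaves out, had 65.1 and 67.9 CPM, a ratio of 1.04 (0.959 to 1.13). CYCS and NDUFAB1 were picked after their values were seen.

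The citric acid cycle, coenzyme Q, import and regulator lists are short, so their counts past 1.2-fold are no result about them. Of all expressed genes 8.70% were at least 1.2-fold higher and 11.0% lower. Of 14 citric acid cycle genes 1 was at least 1.2-fold higher and none lower, with a median of -0.02. That gene was IDH2, the mitochondrial NADPH-forming isocitrate dehydrogenase, at 41.1 and 51.4 CPM, a ratio of 1.25 (1.13 to 1.38), while SUCLG2 was 1.17-fold lower (1.06 to 1.28). Of 13 coenzyme Q genes 1 was higher and none lower (median 0.04), COQ3 with a ratio of 1.26 (0.978 to 1.63), and of 22 import genes 1 was higher and none lower (0.12), the small TIM chaperone TIMM8B with a ratio of 1.35 (1.15 to 1.57) and a fractional count. Regulators of mitochondrial biogenesis had a median of -0.08, with none of 12 at least 1.2-fold higher and 1 lower. That 1 was the coactivator PPARGC1A, named after its values were seen, at 56 and 36 counts, 1.54-fold lower with an interval of 0.994 to 2.41 that includes 1. Not past the step were GABPA (fractional count), 1.18-fold lower (1.03 to 1.36), and PPARGC1B, at 13.2 and 10.9 CPM, 1.204-fold lower with an interval of 0.986 to 1.47 that includes 1. With the trend removed PPARGC1A lay at -0.28, GABPA at -0.073 and PPARGC1B at -0.087.

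Some member counts are less certain than their intervals show. The counts of 7 members were fractional, which are NDUFV2, NDUFC2, UQCRC2, UQCRH, UQCRHL, COX6B2 and ATP5PF. NDUFC2 shares its exons with the readthrough gene NDUFC2-KCTD14, which had 4.98 and 2.65 CPM. NDUFC2 alone had a ratio of 1.18 (1.097 to 1.27) and both together 1.14 (1.06 to 1.23). In GENCODE 29 the exons of 47 of the 83 members overlap another gene on either strand, and 45 have at least 1 pseudogene named after them, up to 17 for COX6C. The overlaps include those of NDUFA1 with RNF113A, NDUFA3 with TFPT and COXFA4L2 with SHMT2, each on the opposite strand.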

How the data were processed

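The authors deposited 1 table per library with an estimated count for each Entrez gene, named counts per the file headers. Per the submitters' processing notes the tools were HISAT2 2.0.4, Bowtie2 and RSEM 1.2.12 with the build GRCh38.p12, without roles. Annotation, filters and use of strand are not given in these sources. Libraries were made from total RNA with a TruSeq kit, per the labels' protocols.

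CPM was computed from library totals, and differences are log2(CPM + 1), PKP2 minus vector, a scale that understates differences of genes near 1 CPM. Ratios are of CPM, with exact Clopper-Pearson 95% intervals from rounded counts, covering counting error only. With 1 library per group no p-value was computed. A member counts as 1.2-fold higher or lower on the log2(CPM + 1) scale. The members, lists and the 1.2-fold step were chosen with earlier results of these data known.

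Symbols came from RefSeq (GRCh38.p14) for 16183 of 16399 IDs, and coordinates, transcript length and GC from GENCODE 29 for 98.8% of expressed genes. The length is that of the APPRIS principal transcript, the shortest where several tie, a choice made after annotated lengths were seen. The length and GC trend is an additive lowess with span 0.3 over all expressed genes. It was tried on simulated counts with counting noise and a straight length trend only, so its GC part was not tested. Python 3.11.15 with scipy 1.17.1 and statsmodels 0.14.6 was used. Alternatives were a pseudocount of 0.1 or of 5, dropping the filter, raising it to a mean of 5 CPM, steps of 1.1-fold and 1.5-fold, median and trimmed-mean scaling, the trend removal and leaving out fractional counts. Genes named are complex II, core catalytic subunits, isoform sets, the 4 most positive and 4 most negative members of each other complex at a mean of 5 CPM or more, the highest and lowest per length, and up to 2 genes per related list, and any others are said to be picked after their values were seen. The values of 1 member are not reported here, and it is counted in the totals.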

Additional observations from a re-analysis of the deposited data

How the results depend on the processing

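The settings compared first were a pseudocount of 0.1 or of 5, no filter, and genes at a mean of 5 CPM or more alone. Median or trimmed-mean scaling and leaving out fractional counts were also tried. In these settings 18 to 25 members were at least 1.2-fold higher, against 3.58% to 10.7% of genes. None was 1.2-fold lower, against 6.72% to 12.8% of genes. The fewest members and the smallest shares came with a pseudocount of 5. The medians by complex moved little, that of complex I to 0.253 with a pseudocount of 0.1 and 0.229 with 5. At 1.1-fold 57 members were higher and 2 lower (23.4% and 25.5% of genes), and at 1.5-fold 1 was higher (0.733%). With the length and GC trend removed 5 were higher and 1 lower (6.31% and 6.71%), the median of the members was 0.077, and the medians of complexes I, IV and V were 0.086, 0.071 and 0.036. With the longest transcript in the trend, an alternative added after seeing the data, 8 were higher and 1 lower (6.65% and 6.49%), the median was 0.10, and complexes I, III, IV and V lay at 0.11, 0.060, 0.12 and 0.084. With coding length, added likewise, 2 were higher and 1 lower (5.85% and 6.62%), the median was 0.066, and these complexes lay at 0.085, 0.038, 0.083 and 0.068. In these 3 versions 50 members were above 0 throughout, 13 below, and 17 changed sign. Levels per length fell with the longest transcript, for complex V from 145.7 to 52.6 CPM per kb in the vector library, beside 56.6 and 50.1 for complex II. No paired analysis was possible because each group has 1 library. Depth limits genes of few counts such as COXFA4L2.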
